A study of Mus musculus with 48 samples.

Results

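Of the 7339 positions that were read more than 100 times in at least 1 library, 848 carried the label intergenic in the authors' annotation of editing sites, and these 848 are described here. They were drawn from 12464 positions with this label among 48715 listed. Editing was measured by mmPCR-seq, a multiplexed PCR of cDNA around positions already listed as edited, followed by sequencing. Sequencing reports inosine as G. The level at a position is thus the percentage of its reads with G where the genome has A, and it was used only at more than 100 reads. The 48 libraries came from the brain, heart, liver, kidney, small intestine, spleen, thymus and bone marrow (BM) of 12-week-old male C57BL/6 mice. The tissues were whole, not sorted. In each, 3 libraries were Adar1+/+ Ifih1-/- (WT) and 3 were Adar1E861A/E861A Ifih1-/- (E861A), from independent animals per the protocol. E861A is a point mutation carried by every cell, in which ADAR1 protein is made but does not deaminate adenosine. Both genotypes lack Ifih1, which encodes the double-stranded RNA sensor MDA5, and neither carries a change in Adar2, the gene of the second editing enzyme, by its label. The choice of the 848 positions used the label and the read depth, not the editing level. The rule's read limit was close to few of them: 4 had a highest depth of 104 to 150 reads, and 10 positions with the label reached only 51 to 87 reads and were left out.

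A-to-I editing is carried out by ADAR enzymes on double-stranded RNA. Much of this structure forms where a transcript holds a repeat element and its inverted copy, so that edited adenosines lie in runs of neighbouring positions. ADAR1 is the main editor of such repeats in most tissues, while ADAR2 is abundant in the brain. The enzymes disfavour a guanosine just before the edited adenosine and favour one just after it.

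The label did not describe most of these positions well in the annotation of the same genome build. All 848 carried A on their stated strand of mm9 (NCBIM37). In GENCODE vM1, 674 of them (79.5%) lay in the 3' UTR of a gene on the same strand, in 32 genes, and 74 (8.73%) lay in a non-coding exon. A further 64 (7.55%) lay on the opposite strand of a gene, and 36 (4.25%) had no gene on either strand. The positions are therefore called sites labelled intergenic, and each is named by the overlapping vM1 gene, with 5 symbols updated through RefSeq, among them Fam46c to Tent5c, 1110018J18Rik to Prxl2c and 1110003E01Rik to Smim14. Positions on 1 strand at most 100 bases apart formed 76 runs. The runs held up to 37 sites, with a median of 11, and 16 of them were a single site. The 60 longer runs held 832 of the 848 sites and had a median span of 60.5 bases and a highest span of 245.

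The sites on which the results turn are printed with 14 bases on either side, 5′ to 3′ on the transcribed strand, from NCBIM37. The capital marks the edited adenosine. The first 10 were called lower in E861A in at least 1 tissue, Hspa4l and Smim14 are described for their brain levels, and the Prxl2c site is described for its reads.
Tent5c 3' UTR, chr3:100272400 (minus strand): tcatgtgtgtttatAtaggaaggtgagct
Tent5c 3' UTR, chr3:100272398 (minus strand): atgtgtgtttatatAggaaggtgagctga
Tent5c 3' UTR, chr3:100274399 (minus strand): aatctttcttagttAggtttgaattcatt
Xpnpep3 3' UTR, chr15:81285395 (plus strand): atctctgagttcaaAgtcagcctgatcta
Xpnpep3 3' UTR, chr15:81285388 (plus strand): caggcagatctctgAgttcaaagtcagcc
Xpnpep3 3' UTR, chr15:81286590 (plus strand): caagtgctgaagttAaaagcgtgcaccac
Coro7 3' UTR, chr16:4626376 (minus strand): aaaaataattttatAgttgggggtcacca
No vM1 gene, chr17:39980697 (plus strand): aatgcccttggaagAgaaccttcctgttg
Nom1 3' UTR, chr5:29779671 (plus strand): ctccttgtaaccctAgctgtcctgggact
6530401F13Rik non-coding exon, chr12:82658030 (plus strand): ttgtatgggtttctAccctctgcccttcc
Hspa4l 3' UTR, chr3:40597116 (plus strand): ggatctggaaagatAactcaacagtcaag
Smim14 3' UTR, chr5:65839285 (minus strand): ctagctctggcctcAagcccagagatcca
Prxl2c 3' UTR, chr13:64391618 (minus strand): agtaagacaggggtAgatactgagttcca

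Exact copies of the 21 bases around each of the 25 named sites were counted in the genome on both strands. The stretch with A occurred once for 16 of the 25. Copies with G at the site existed for 8. There were 687 for Coro7 chr16:4626376, 113 for Xpnpep3 chr15:81285395, 89 for the site opposite Star, 57 for Fitm2, 35 for Nom1 and 2 each for Atp5g1, Hspa4l chr3:40597116 and Xpnpep3 chr15:81285388, and none for the 3 Tent5c sites, the site without a gene, Smim14, Prxl2c or 6530401F13Rik. The part of such copies in the levels was not tested.

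Covered sites were those with more than 100 reads in 2 or more of the 3 libraries of both genotypes, and edited sites those with a pooled level above 1% in either genotype. Of the 848 sites, 827 were covered in at least 1 tissue and 196 (23.1%) were edited in at least 1. Sites with the label 3' UTR were edited at 28.0% (1195 of 4272), intronic sites at 21.4% (226 of 1057) and non-coding RNA sites at 21.3% (81 of 381). Of the 196 sites, 105 were edited in E861A in some tissue. The brain held the most edited sites, 97 of 538 covered, followed by liver with 55 of 592, kidney with 55 of 594, BM with 52 of 665, thymus with 43 of 787, small intestine with 36 of 563, heart with 28 of 767 and spleen with 26 of 787. In this order the shares were 18.0%, 9.29%, 9.26%, 7.82%, 5.46%, 6.39%, 3.65% and 3.30%. Over covered sites of any label they were 20.5%, 14.0%, 10.4%, 10.6%, 8.14%, 8.01%, 7.25% and 4.35%, so the brain led there too. By these rules 112 of the 196 sites were edited in 1 tissue, 38 of them in the brain alone, and 7 in all 8 tissues. A site not covered in a tissue counted as not edited there, and only 120 of the 848 had more than 100 reads in all 48 libraries. The number of tissues per site was not counted for other labels.

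Many of these sites rested on 1 library. Of the 392 combinations of an edited site and a tissue, 194 (49.5%) were above 1% in only 1 of the 6 libraries, which was an E861A library 47 times and a WT library otherwise. In 20 combinations all 6 libraries were above 1%. The share that rested on 1 library was 34.0% in brain, 29.1% in kidney, 65.4% in BM and 88.9% in small intestine. Over all edited sites of any label it was 25.0%, 25.4%, 51.7% and 80.9%. In liver the share was 56.4% against 36.9% over all edited sites, and in spleen 50.0% against 46.8%. Thymus had 46.5% against 40.6%, and heart 53.6% against 63.9%. The site chr7:28313187, on the strand opposite the protein kinase gene Hipk4, was at 92.5% in WT brain replicate 1 and at 0% in replicate 3. It was at 0% in the 3 E861A brain libraries, and WT replicate 2 had 100 reads or fewer. The Fbxl18 3' UTR site chr5:143632684, in a gene for an F-box protein, was at 100% in WT brain replicate 2, at 31.5% in replicate 3 and at 0%, 37.3% and 0.121% in E861A. In small intestine, the Hspa4l sites chr3:40597111 and chr3:40597116 were at 99.7% and 99.6% in WT replicate 3, at 8.06% and 13.5% in replicate 1 and at 0.215% and 0.166% in replicate 2.

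**Figure D1:**
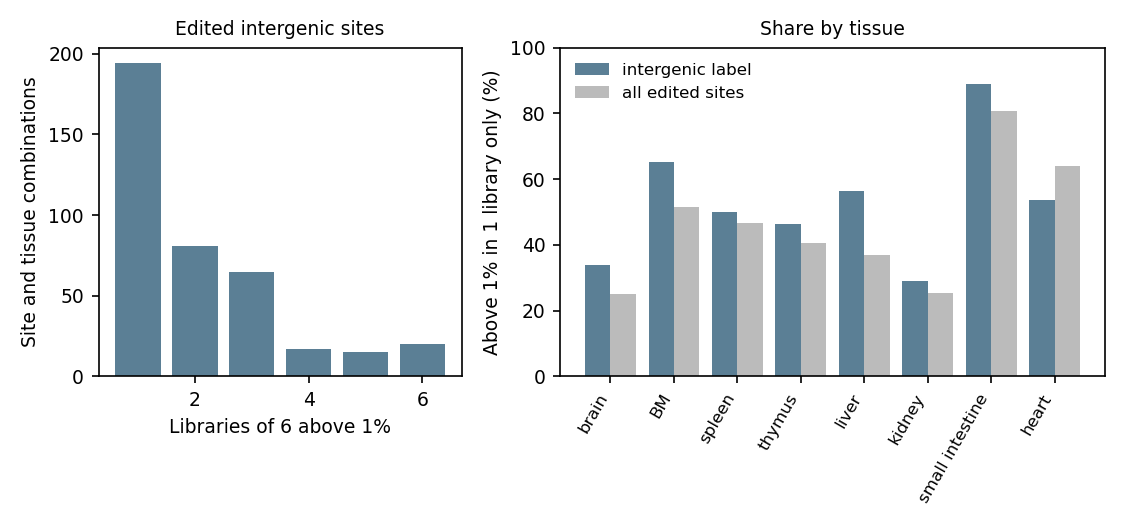
Left, number of combinations of an edited site and a tissue (vertical axis) by how many of the 6 libraries were above 1% (horizontal axis). Right, percentage of edited sites above 1% in 1 library only, per tissue, for sites labelled intergenic (blue bars) and for all edited sites (grey bars): small intestine is highest at 88.9% and kidney lowest at 29.1%.

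The bases next to the adenosine differed between groups of sites, as a description. A guanosine followed the adenosine at 28.2% of the 652 sites that were not edited and at 42.3% of the 196 edited sites. It followed at 65.8% of the 38 sites that were above 1% in every covered WT library of some tissue. A guanosine came before it at 23.0%, 18.4% and 7.89% of these sites, and a thymidine at 17.2%, 27.6% and 44.7%. Positions with any other label gave 31.8% for a following guanosine at 4861 unedited positions and 41.0% at 1630 edited ones. These groups were formed by level, so they are given without a test. A segment of at least 50 aligned bases that matched in inverted orientation within 3000 bases overlapped 84 of the 196 edited sites (42.9%) and 208 of the 652 others (31.9%). Of the 56 runs with an edited site, 24 (42.9%) overlapped such a segment, as did 7 of the 20 runs (35.0%) without one. The Tent5c, Smim14 and Nom1 sites, and the site without a gene, had no such segment within that distance.

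Mean levels were lower in E861A in every tissue. Over the edited sites read in all 6 libraries of a tissue, the 3 WT brain libraries had means of 9.49%, 12.5% and 9.64%, and the 3 E861A brain libraries 7.11%, 7.63% and 6.02% (65 sites). The WT mean was 10.5% ± 1.67 and the E861A mean 6.92% ± 0.823 (SD, n = 3 libraries), a fall of 34.3%, where over all edited sites of any label the brain fell by 21.6%. In BM the WT libraries were at 7.70%, 10.5% and 5.06% and the E861A libraries at 0.371%, 0.323% and 1.16% (30 sites), a fall of 92.0%, against 91.3% over all edited sites. The spleen went from 5.64% ± 1.94 to 0.583% ± 0.170 (25 sites), and the thymus from 5.20% ± 3.92 to 0.396% ± 0.313 (39 sites). The liver went from 6.73% ± 2.95 to 1.33% ± 0.340 (44 sites) and the kidney from 4.94% ± 1.54 to 0.795% ± 0.404 (54 sites). The small intestine went from 6.57% ± 4.54 to 0.905% ± 0.182 (23 sites) and the heart from 6.34% ± 2.81 to 1.88% ± 1.33 (24 sites, all n = 3 libraries). The falls were 89.7% in spleen, 92.4% in thymus, 80.2% in liver, 83.9% in kidney, 86.2% in small intestine and 70.3% in heart. Over all edited sites they were 71.8%, 89.0%, 67.7%, 74.3%, 84.0% and 70.3%. The edited sites labelled intergenic were chosen for a pooled level above 1% that was reached more often in WT. Over them, the libraries of the genotypes did not overlap in any of the 8 tissues. Over all sites labelled intergenic with more than 100 reads, the pooled percentage of reads with G overlapped in brain, at 1.81%, 2.26% and 1.93% in WT and 1.84%, 1.60% and 1.43% in E861A. Over all edited sites of any label they overlapped in small intestine, at 11.1%, 0.978% and 5.90% in WT and 0.506%, 1.33% and 1.03% in E861A. For sites labelled intergenic, the WT libraries of thymus (1.39% to 9.22%) and small intestine (1.67% to 10.6%) were spread widely. In whole tissue, a lower level cannot be told apart from a change in which cells supplied the transcript.

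**Figure D2:**
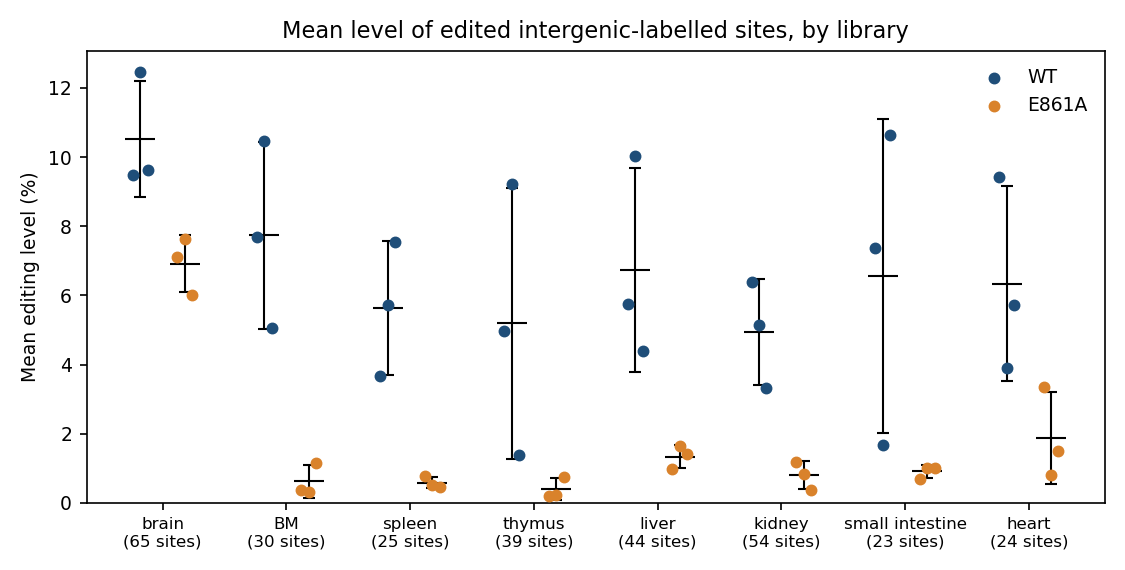
Mean editing level in percent (vertical axis) of the edited sites read in all 6 libraries, for each tissue (horizontal axis, number of sites in brackets), with WT libraries in blue and E861A libraries in orange. Horizontal marks and bars are the mean and SD of 3 libraries; the brain keeps 6.92% in E861A, and the other 7 tissues lie between 0.396% and 1.88%.

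Single sites were compared per tissue with limma on log2((level + 0.01)/(1 − level + 0.01)), with levels as fractions and Benjamini-Hochberg adjustment over all edited sites of the tissue. In BM, 9 of 52 sites labelled intergenic were lower in E861A and none higher, where 27.0% of the 538 edited sites of any label were lower. In spleen 7 of 26 were lower, where 8.45% of all 284 were. In liver 3 of 55 were lower against 9.75% of 677, and in kidney 6 of 55 against 17.1% of 532. The liver calls were all lost without E861A replicate 1, 2 or 3, where over all edited sites 22 of 645, 29 of 554 and 15 of 590 were called. Without WT replicate 3, 7 of 36 were called in liver beside 98 of 572 over all edited sites, and 20 of 56 in kidney beside 200 of 542. In kidney 3 of 51 were called without WT replicate 2, beside 55 of 484, and 3 of 56 without E861A replicate 3, beside 62 of 515. No site labelled intergenic passed in brain, thymus, small intestine or heart, where over all edited sites 0.0% were called lower in each. At an unadjusted p under 0.05, 6 of 97 sites differed in brain (5 lower), 7 of 43 in thymus, 0 of 36 in small intestine and 3 of 28 in heart, beside 56 of 808, 75 of 529, 2 of 413 and 21 of 446 over all edited sites. The 25 calls were made at 14 sites in 10 runs, and 7 sites passed in at least 2 tissues. In each of the 25 the E861A libraries lay below all WT libraries. Calls were chosen for a difference between the same libraries, so this separation adds no support to them. It was not counted for called sites of other labels. On the untransformed level none of the 25 was called, and over all edited sites 11 of 538 were called in BM, 4 of 284 in spleen, 0 of 677 in liver and 24 of 532 in kidney. Changes of the mean level ranged from 6.07 to 39.7 percentage points, and the E861A mean was under 1% in 20 of the 25.

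The Tent5c sites chr3:100272400 and chr3:100274399 were called in 4 tissues each, more than any other site. Tent5c encodes a non-canonical poly(A) polymerase that stabilises mRNAs. At chr3:100272400 the WT libraries were at 19.0%, 22.7% and 9.27% in BM, at 27.1%, 24.9% and 4.56% in spleen, at 9.35%, 27.6% and 8.46% in liver and at 29.1%, 23.6% and 8.09% in kidney. All 24 E861A libraries were at or below 0.169%, so the genotypes did not overlap in these 4 tissues. The log2 change was -4.21 ± 0.503 (SE) in BM, -4.10 ± 0.750 in spleen, -4.03 ± 0.770 in liver and -4.55 ± 0.662 in kidney (limma adjusted p = 0.00157, 0.00105, 0.0275 and 0.00397). Without 1 E861A liver library the liver value was between 0.0687 and 0.0852 (limma adjusted p). In heart the WT libraries were highest, at 49.6%, 13.3% and 29.5%, but the test did not pass (log2 change -5.27 ± 1.31, limma adjusted p = 0.263). In thymus they were at 36.1%, 27.4% and 4.17%, with limma adjusted p = 0.288. In small intestine the WT libraries read 2.94%, 0% and 0%, and in brain 0% and 21.1%, with 1 library at 100 reads or fewer. The site 2 bases away, chr3:100272398, was at 14.3%, 16.0% and 10.7% in WT spleen and at 0.239%, 0.201% and 0.358% in E861A. In E861A kidney replicate 1 it stood at 6.79%, the highest of its 24 E861A libraries. The distant Tent5c site chr3:100274399 was above 1% in 20 of 24 WT libraries and in none of 24 E861A libraries, whose highest was 0.715%. Its WT mean was 14.7% ± 4.86 in BM, 14.3% ± 4.02 in spleen, 10.2% ± 3.86 in liver, 17.1% ± 7.36 in kidney and 26.0% ± 6.31 in heart (SD, n = 3), and it was called in the first 4.

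Xpnpep3 encodes a mitochondrial aminopeptidase, and its 3' UTR held 2 runs of edited sites. At chr15:81285388 the WT BM libraries read 19.4%, 26.9% and 16.4% and the E861A ones 0.103%, 0.296% and 0.219%. This was a log2 change of -4.49 ± 0.414 (limma adjusted p = 0.00104). In WT spleen it read 2.29%, 8.22% and 25.4%, in WT thymus 9.80%, 23.4% and 3.59%, and in WT brain at most 0.188%. The site 7 bases away, chr15:81285395, was high in the brain, where WT libraries read 37.5%, 27.8% and 49.7% and E861A libraries 42.7%, 28.0% and 29.3%. These overlap, and the log2 change was -0.30 ± 0.616 (limma adjusted p = 0.838). In BM the same site read 29.2%, 59.6% and 30.0% in WT and 0%, 0% and 3.97% in E861A, a log2 change of -5.23 ± 0.841 (limma adjusted p = 0.00472). In liver it kept 5.81%, 6.15% and 3.05% in E861A beside 53.0%, 41.7% and 19.1% in WT. The second Xpnpep3 run, which has an inverted partner segment at a gap of 699 bases, was called at chr15:81286590 in liver, where WT libraries read 9.52%, 26.7% and 11.9% and E861A libraries 0%, 0% and 0.0934% (log2 change -4.17 ± 0.724, limma adjusted p = 0.0201, and 0.0550 to 0.0782 without 1 E861A library).

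Coro7, a coronin that acts at the Golgi apparatus, was edited most in BM. Its site chr16:4626376 read 22.8%, 21.9% and 21.4% in WT BM, the closest agreement between replicates among the sites called there, and 0.0608%, 0.160% and 0.113% in E861A. The log2 change was -4.73 ± 0.361 (limma adjusted p = 0.000523). In WT thymus it read 3.12%, 5.09% and 2.61%, and in WT heart at most 0.0552%. In BM a second site of the run, chr16:4626347, went from 15.0% ± 2.84 to 0.331% ± 0.103 (SD, n = 3; limma adjusted p = 0.00124). Nom1, a nucleolar protein gene, read 65.7% and 19.5% in WT BM with replicate 2 at 100 reads or fewer, and 0.613%, 0.589% and 7.55% in E861A (limma adjusted p = 0.0377). The call was lost without E861A replicate 1 or 2 (limma adjusted p = 0.1005 and 0.0915). In brain the same site kept 36.9%, 43.8% and 47.2% in E861A beside 58.4%, 83.7% and 68.4% in WT. The genotypes did not overlap, and the test did not pass (limma adjusted p = 0.643). In liver it read 21.1%, 13.5% and 5.50% in WT and 12.4%, 10.0% and 10.9% in E861A, which overlap. In kidney, Acad9, encoding a mitochondrial acyl-CoA dehydrogenase, was called at chr3:35992548, which read 2.26%, 5.99% and 21.6% in WT and 0% in all 3 E861A libraries (limma adjusted p = 0.0412). Vezt, a cell junction protein gene, was called there at chr10:93427325, which read 5.38%, 8.11% and 4.87% in WT and 0%, 0% and 0.149% in E861A (limma adjusted p = 0.00797).

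The site at chr17:39980697 was the only one called of those without a vM1 gene. The nearest vM1 gene, the pseudogene AY036118 on the minus strand, lies 4351 bases away, and in the RefSeq gene table of a later assembly (GRCm38.p6) AY036118 neighbours Rn18s-rs5, a ribosomal RNA pseudogene. The 21 bases around the site occur 2 times in the genome, with A at the site both times. It was edited in all 8 tissues and was above 1% in 24 of 24 WT libraries, from 2.75% to 87.7% with a median of 22.0%. Its E861A libraries ranged from 0% to 9.42%, with 21 of 24 above 1%. In spleen the WT libraries read 16.7%, 27.6% and 24.7% and the E861A libraries 4.51%, 8.71% and 5.78%, a log2 change of -2.004 ± 0.380 (limma adjusted p = 0.00143, and 0.0816 in a fit over all 48 libraries). In kidney they read 11.8%, 21.2% and 30.2% against 4.72%, 2.15% and 4.56%, a log2 change of -2.44 ± 0.590 (limma adjusted p = 0.0321). The kidney call was lost without WT replicate 2, E861A replicate 2 or E861A replicate 3 (limma adjusted p = 0.1011, 0.0824 and 0.0613). In brain the libraries read 87.7%, 55.7% and 13.8% in WT and 1.14%, 0.311% and 0% in E861A, which did not pass (log2 change -6.32 ± 1.37, limma adjusted p = 0.150). The brain had the lowest E861A mean of the 8 tissues at this site, 0.485% ± 0.591, beside 1.99% ± 1.37 in BM and 6.48% ± 1.90 in heart (SD, n = 3).

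**Figure D3:**
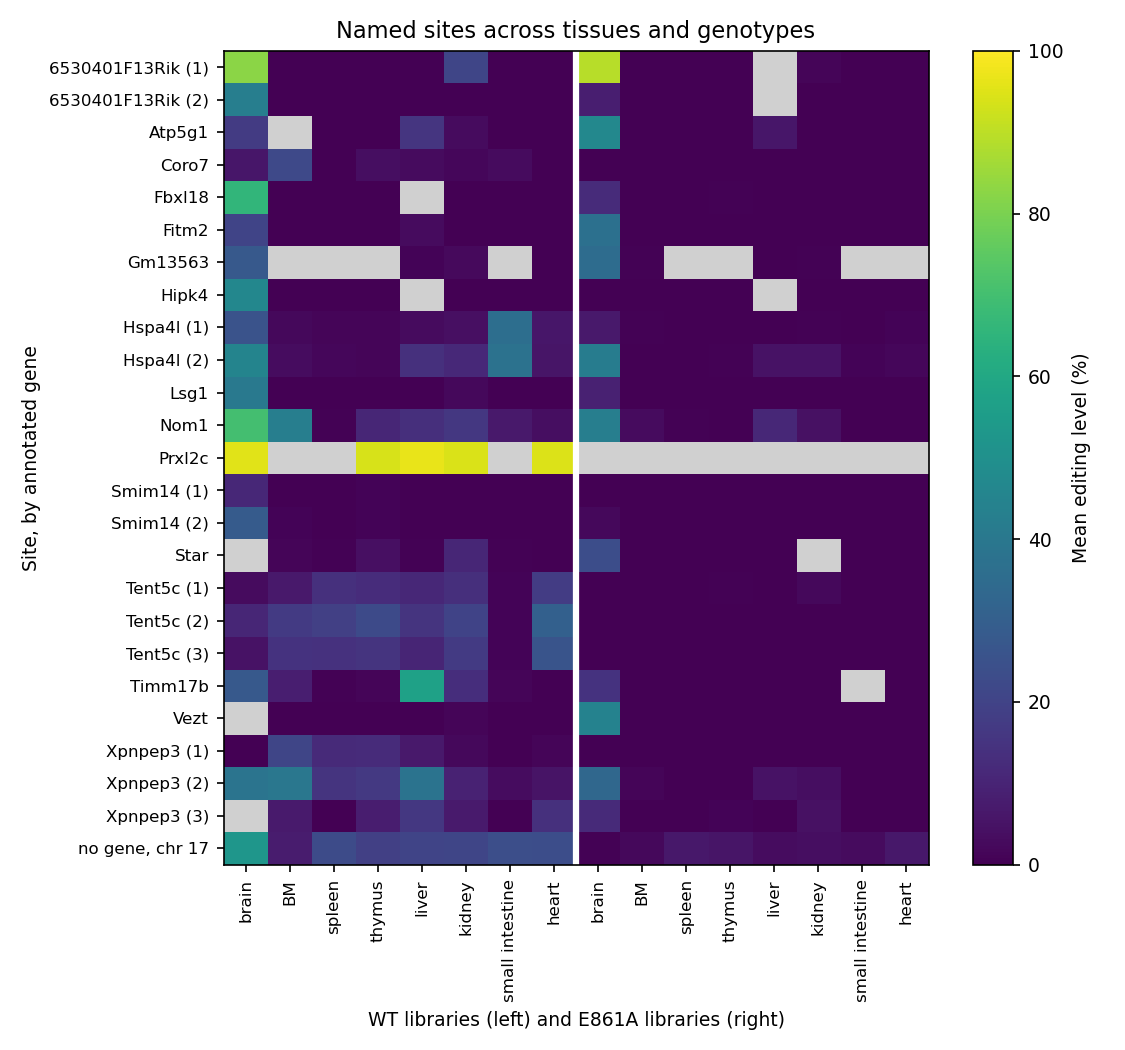
Mean editing level in percent (colour) of the named sites (1 line per site, by gene) in the 8 tissues, with WT in the left block and E861A in the right. Grey marks fewer than 2 libraries over 100 reads. The Tent5c site chr3:100272400 is coloured in several WT tissues and dark in E861A, where no library was above 0.169%. The sites 6530401F13Rik chr12:82658030, Hspa4l chr3:40597116 and Nom1 chr5:29779671 stay coloured in the E861A brain.

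Several brain sites had like levels in both genotypes. Of the edited brain sites with a WT mean over 5%, 24 of 50 labelled intergenic kept 50% or more of it in E861A. Over all labels 214 of 387 did. At Hspa4l chr3:40597116, in a gene for a heat shock protein of the Hsp110 family, the WT brain libraries read 45.3%, 49.3% and 40.2% and the E861A ones 44.0%, 42.0% and 40.2%, with a log2 change of -0.17 ± 0.488 (limma adjusted p = 0.909). Outside the brain its E861A libraries reached at most 8.33%. The neighbour chr3:40597111, 5 bases away, read 27.0%, 33.5% and 16.5% in WT brain and 7.01%, 7.51% and 6.39% in E861A, where the genotypes did not overlap and the test did not pass (limma adjusted p = 0.389). At the 6530401F13Rik site chr12:82658030, in a long non-coding RNA, the 2 WT brain libraries read 100% and 65.4% and the 3 E861A ones 85.8%, 99.9% and 82.4%. Kidney was the only other tissue where it was covered and edited, at 12.5%, 20.9% and 29.8% in WT and at 0%, 4.64% and 0% in E861A, a log2 change of -3.87 ± 0.840 (limma adjusted p = 0.0205). This call was lost without any 1 WT library or without E861A replicate 3 (limma adjusted p between 0.0508 and 0.0734). The site chr12:82658102 of the same run had a WT brain mean of 42.8%, with 1 library at 84.2%. Its E861A libraries reached at most 17.4%. The B230217C12Rik run had 5 edited brain sites with overlapping libraries at every one. Its site chr11:97704488 read 5.27%, 7.67% and 6.79% in WT brain and 5.55%, 7.45% and 6.15% in E861A. Overlap was usual in brain. Of 65 edited sites labelled intergenic and read in all 6 libraries, E861A lay below WT at 5 and above at 1. For 631 sites of any label the numbers were 73 and 42.

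Of the sites with the highest E861A means, 5 more were brain sites with libraries far apart. The Atp5g1 site chr11:95932976, in a gene for ATP synthase subunit c, read 0.204% and 34.2% in WT and 85.6% and 7.38% in E861A. The Vezt site chr10:93428809 read 54.0% in the only WT library and 99.7%, 0% and 33.2% in E861A, and Fitm2 chr2:163294155, in a gene of lipid droplet formation, read 0.209% and 41.0% in WT and 73.6% and 0.235% in E861A. Gm13563 chr2:26237266, in a non-coding exon, read 0.118%, 14.0% and 70.2% in WT and 22.3%, 27.9% and 56.5% in E861A. On the strand opposite Star, the steroidogenic acute regulatory protein gene, chr8:26924886 read 53.2% in the only WT library and 22.9%, 0.183% and 47.9% in E861A. The genotypes overlap at Atp5g1, Vezt, Fitm2 and Gm13563, and at the Star site the only WT library lies above the 3 E861A libraries.

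The genotype effect in the brain was then compared with that in each other tissue by a limma interaction contrast over 12 libraries, in 7 contrasts that share the brain libraries. Of 732 tests of sites labelled intergenic, 7 passed, where 1.3% of all 5927 did. They involved 3 sites. Smim14 chr5:65839284, in a gene for a small membrane protein, was at 14.2% and 8.11% in WT brain and at 0.240%, 0.0476% and 0.179% in E861A brain, and was below 1% in all other libraries but 1, WT thymus replicate 2 at 2.92%. WT brain replicate 1 had 1 read there and was not used. Its change in brain differed from that in BM, spleen, liver, kidney and small intestine by 3.21 to 3.60 on the log2 scale (limma adjusted p between 0.0170 and 0.0411). Its neighbour chr5:65839285 read 38.5% and 19.0% in WT brain and 0.228%, 0.828% and 5.27% in E861A. The 2 Xpnpep3 sites chr15:81285388 and chr15:81285395 differed in the genotype effect between BM and brain, with differences of -4.47 ± 0.564 and -4.93 ± 1.11 on the log2 scale (SE; limma adjusted p = 0.00834 and 0.0423). At Smim14 the WT means of the 5 other tissues were below 1%, and chr15:81285388 was at most 0.188% in WT brain, so 6 of the 7 tests compare a tissue where the site is edited with one where its WT level was below 1%. Only chr15:81285395 was edited in both tissues. Without WT brain replicate 1, 25 of 719 tests passed beside 2.99% of 5314 over all sites, and without WT brain replicate 3, 17 of 502 beside 222 of 4552. Without E861A brain replicates 1, 2 and 3, the counts were 4 of 724, 3 of 644 and 12 of 661, beside 67 of 5866, 78 of 5696 and 99 of 5656.

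In WT alone, 21 of 107 sites labelled intergenic differed between the 8 tissues by limma's moderated F test over 24 libraries, where 17.7% of all 840 sites did. The brain had the highest WT mean at 16 of the 21 and BM at 5. The tissue with the highest mean was not counted for sites of other labels. This split therefore has no comparison and is not taken as particular to sites labelled intergenic. The smallest adjusted p was that of chr17:33472367, on the strand opposite the zinc finger gene Zfp81, at 5.27% in brain and at most 0.132% in the means of the 7 other tissues (limma adjusted p = 1.65e-07). In E861A brain it read 8.02%, 3.99% and 6.42%, which overlaps the WT brain libraries. The B230217C12Rik site chr11:97704497 was at 5.89% in brain and at most 0.296% elsewhere, and 3 more sites of its run passed. Among sites highest in BM, the F test passed at Xpnpep3 chr15:81285388, chr15:81285372 and chr15:81285395 and at Coro7 chr16:4626347 and chr16:4626376. At chr15:81285395 the BM mean of 39.6% ± 17.3, the brain mean of 38.3% ± 11.0 and the liver mean of 38.0% ± 17.3 (SD, n = 3) lie within 1 SD of each other, so their order is not resolved.

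Of the 76 runs, 56 held an edited site. The 6 with the most edited sites held 55 of the 196, and ties at the sixth place were settled by the number of sites in the run. They lie in the 3' UTRs of Lsg1, Xpnpep3, Coro7, Smyd3, B230217C12Rik and Vezt. Lsg1 encodes a GTPase of ribosome assembly, and its run at chr16:30561084-30561233 had 14 edited sites of 37, of which 11 were edited in the brain and at most 2 in any other tissue. Within the run the libraries differed. WT brain replicate 2 read 89.0%, 57.3%, 41.7% and 41.2% at chr16:30561108, 30561133, 30561183 and 30561126, while WT brain replicate 1 was below 0.4% at all 11 brain sites. None of the 11 was called. In the second Xpnpep3 run (chr15:81286560-81286727), 11 of 22 sites were edited, 7 in liver, 5 in thymus and none in brain by the rule of 2 covered libraries per genotype. The highest liver level was in WT replicate 2 at chr15:81286590, 26.7%, followed by 12.0% at chr15:81286593 and 11.2% at chr15:81286585. The Coro7 run (chr16:4626224-4626390) had 9 of 29 sites edited, 6 of them in BM. Smyd3, encoding a lysine methyltransferase, had 7 of 27 (chr1:180882199-180882398), and 3 of them were at 56.0%, 55.1% and 56.3% in WT liver replicate 3 and at most 0.729% in replicate 1, with replicate 2 at 100 reads or fewer. In E861A brain replicate 2 of that run, 3 sites stood at 16.2%, 15.2% and 15.1% and the 2 other E861A brain libraries were at most 0.301%. The B230217C12Rik run (chr11:97704455-97704605) had 7 of 21 edited sites, and the Vezt run (chr10:93427215-93427374) 7 of 20. Edited sites were neighbours of unedited ones in all 6 runs. Members of a run can be read from a shared amplicon, so they are not taken as replicates of each other.

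**Figure D4:**
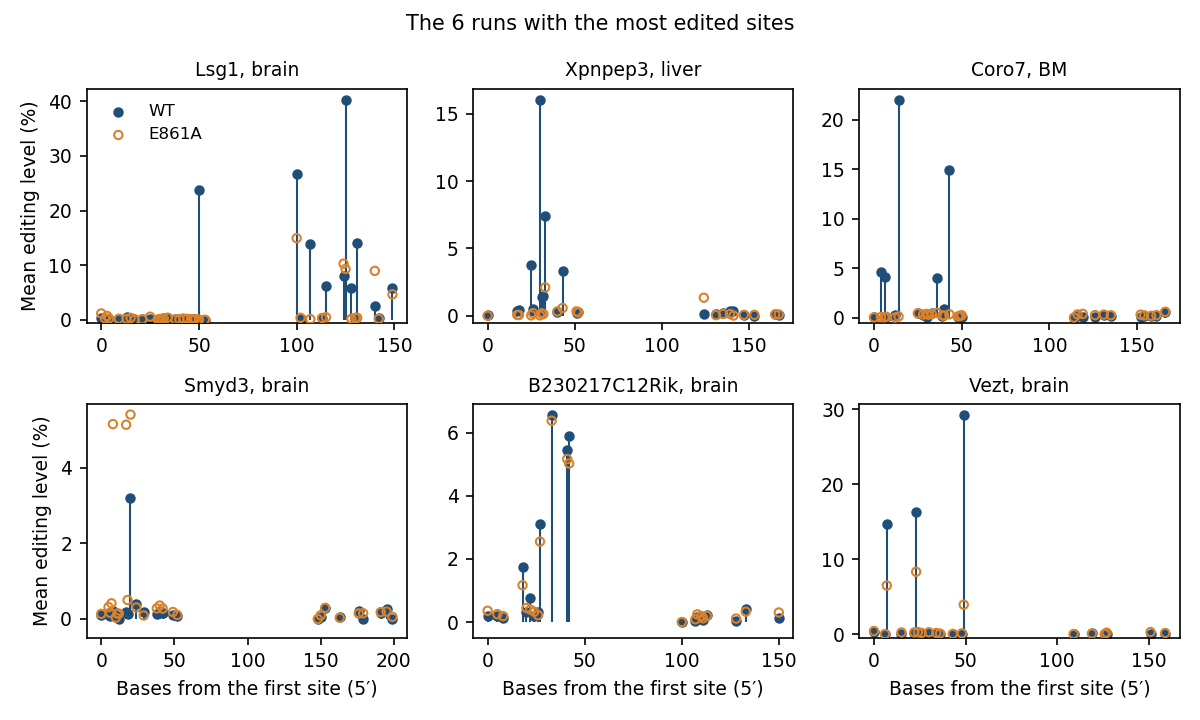
Mean editing level in percent (vertical axis) against distance in bases from the first site of the run on the transcribed strand (horizontal axis), for the 6 runs with the most edited sites, each in the tissue with the most of them; WT is filled blue, E861A open orange. The 3 highest B230217C12Rik sites lie between 5.03% and 6.57% in both genotypes, and the Coro7 E861A points in BM lie near 0%.

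The site chr13:64391618 in the 3' UTR of Prxl2c was named for its mean WT level over libraries with more than 100 reads. A library reached that depth there only through its reads with G, so the levels of the 15 such WT libraries (90.9% to 98.3%) had to be high and are not compared. The 9 WT libraries with fewer reads ranged from 3.03% to 98.3%. Fewer reads covered the site than the next site of the run. As a percentage of the reads there, they were 1.07% to 43.1% in WT (median 20.0%). In E861A they were 0.969% to 7.08% (median 1.89%). At the next site of the run, chr13:64391626, 8 bases away, the WT libraries had a median of 2695.5 reads and the E861A libraries 2532. At chr13:64391618 the medians were 520 reads in WT and 48.5 in E861A. Reads without G at the site numbered 1 to 42 in WT and 17 to 63 in E861A, so the libraries differed in the reads with G, of which there were 494 in the median WT library and 10.0 in the median E861A library. As a percentage of the reads at the next site, the reads with G were 15.0% to 31.6% in WT brain and 3.13% to 5.72% in E861A brain, 21.9% to 39.0% and 0.346% to 1.497% in liver and 11.9% to 19.8% and 0.0743% to 0.571% in kidney. These percentages did not overlap between genotypes, and on this scale the WT liver mean was 30.3% ± 8.55 (SD, n = 3). In BM they also did not overlap. In small intestine WT replicate 1 stood at 42.4%, from 864 reads with G, and the other 2 WT libraries had 2 and 4 such reads beside 2, 2 and 3 in E861A. In spleen, thymus and heart the genotypes overlapped. The site 2 bases away, chr13:64391616, had like read numbers in each library. Among 809 sites in runs of at least 5, 22 had under 50% of their run's median depth in the median library, and 1 of these was edited. The Prxl2c site did not count as edited, because its E861A libraries had too few reads to be tested in any tissue.

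**Figure D5:**
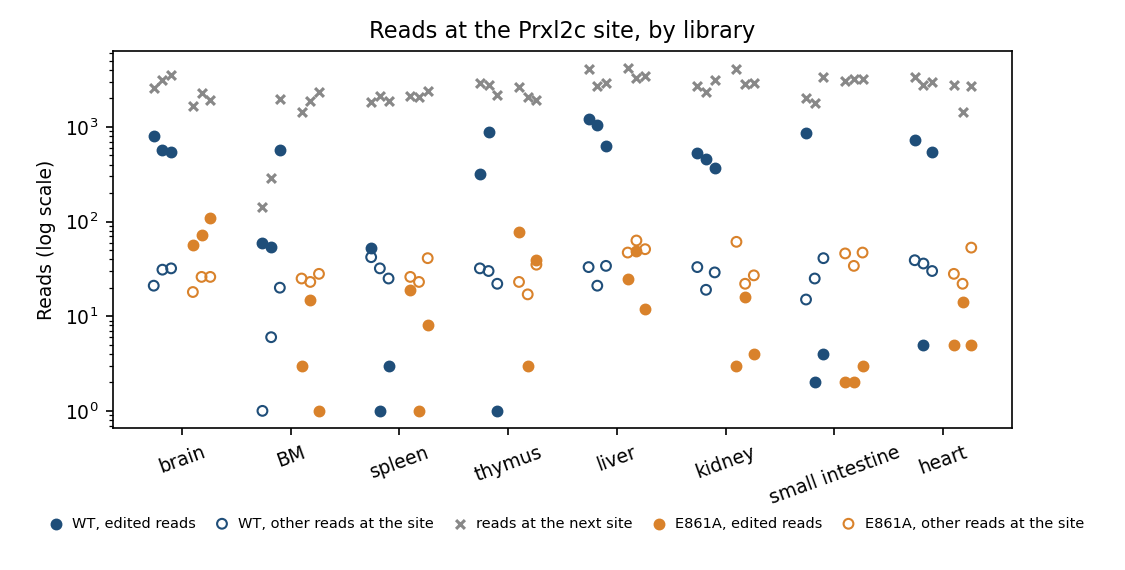
Reads per library on a log scale (vertical axis) at the Prxl2c site in each tissue (horizontal axis): reads with G as filled circles, reads without G as open circles and, as crosses, all reads at the next site of the run; WT is blue, E861A orange. Reads without G stay between 1 and 63 in all libraries, while reads with G reach 1219 in WT and 109 in E861A.

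Coverage summed over all positions ranged from 1861831 to 11394093 per library, and 322 to 822 of the 848 sites (median 696) had more than 100 reads, at a median depth of 691 to 1876 reads per library. The shallowest library was WT BM replicate 2. Reads from PCR are not counts of molecules. WT thymus replicate 3 was low over the sites labelled intergenic (1.39%) and over all edited sites (0.991%), and WT small intestine replicate 2 likewise (1.67% and 0.978%). With the former left out, 16 of 55 sites labelled intergenic were called lower in thymus, and 223 of 560 over all edited sites, where none was with it.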

How the data were processed

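Editing levels of 48 mmPCR-seq libraries were analysed. The authors deposited, per library and position, the count of reads covering it, the count of edited reads and the edited fraction; the submitters' processing notes name STAR, SAMtools and mm9. Levels were recomputed as edited over covering reads where coverage exceeded 100, and matched the deposited fraction within 0.0005. Tests between genotypes used log2((level + 0.01)/(1 − level + 0.01)) in limma 3.58.1 (R 4.3.3). P-values were adjusted by Benjamini-Hochberg across every edited site of a tissue, with a threshold of 0.05. Gene classes came from GENCODE vM1 on NCBIM37, and inverted segments from blastn 2.17.0+. The per-site script was tested on simulated data in which no site had a spread above the median spread. That test does not give the rate of false calls at the wider spread of some sites here. Named were, per tissue, the 3 called sites of largest change, or the 3 of smallest p where none passed, the 10 highest WT means, the 5 highest E861A means outside runs already named and the 6 runs with the most edited sites. Others were chosen after their values were seen. The members and lists were chosen with earlier results of these data known. Whole-series tables of other values were not used here.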

Additional observations from a re-analysis of the deposited data

Results flagged for a closer look

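The genotype effect differed between brain and another tissue by limma's interaction contrast in 7 of 732 tests, at 3 sites, beside 77 of 5927 over all sites. It is given as the log2 change in the other tissue minus that in brain. At Smim14 chr5:65839284 the difference was 3.40 for BM, 3.28 for spleen, 3.31 for liver, 3.21 for kidney and 3.60 for small intestine (limma adjusted p = 0.0170, 0.0260, 0.0332, 0.0359 and 0.0411). These 5 contrasts share the same brain libraries, of which WT replicate 1 had too few reads, and in each of the 5 other tissues the WT mean of the site was below 1%. At Xpnpep3, the difference for BM was -4.47 at chr15:81285388 and -4.93 at chr15:81285395 (limma adjusted p = 0.00834 and 0.0423). The first of these was at most 0.188% in WT brain, so only the second was edited in both tissues compared. Of the remaining contrasts, thymus and heart gave no call among these sites.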

How the results depend on the processing

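None of the differences and changes recomputed under the alternatives turned in direction. Calls are given with those over all edited sites in brackets. With a coverage minimum of 500 reads, 5 of 47 sites were called in liver (67 of 585) and 2 of 26 in heart (9 of 370). With an edited limit of 0.05, 7 of 21 were called in liver (86 of 335) and 2 of 9 in heart (4 of 136). An offset of 0.001 gave 3 of 43 in thymus (19 of 529), 5 of 55 in liver (89 of 677), 10 of 55 in kidney (125 of 532) and 2 of 28 in heart (4 of 446). On the untransformed level 0 passed in BM (11 of 538), spleen (4 of 284), liver (0 of 677) and kidney (24 of 532), and 0 of 732 interaction tests passed (1 of 5927). A quasi-binomial model called 2 of 26 in spleen (8 of 284) and 1 of 55 in kidney (26 of 532). The study's criterion (unadjusted p under 0.1 and means at least 0.05 apart) gave 5 of 97 in brain (63 of 808), 1 of 43 in thymus (29 of 529), 7 of 55 in liver (95 of 677) and 3 of 28 in heart (13 of 446). A fit over all 48 libraries gave 26 of 97 in brain, 22 of 52 in BM, 9 of 43 in thymus, 15 of 55 in liver, 10 of 55 in kidney, 7 of 36 in small intestine and 5 of 28 in heart, beside 217 of 808, 253 of 538, 94 of 529, 223 of 677, 116 of 532, 48 of 413 and 29 of 446 over all edited sites. Of the calls at sites labelled intergenic, 8, 4, 1 and 1 were higher in E861A in brain, BM, small intestine and heart. The direction over all edited sites was not counted for this fit, so these numbers have no comparison. The cause of the shifts between settings was not tested. Replicate numbers did not pair the genotypes: deviations of same-numbered libraries correlated over 0.1 in 2 of 24 cases. Between WT tissues they did so in 25 of 84, and at all 3 numbers for BM with liver and BM with thymus. These correlations ran both ways, from -0.323 to 0.331 with a median of 0.0169. Liver with small intestine gave -0.179, -0.204 and -0.153. With the replicate block 19 of the 25 calls stayed, with 0 in liver (0 of 677), and 7 interaction and 21 tissue calls were made, as without it. The 48-library fit kept 24 of the 25 calls, and the quasi-binomial model 11.

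The mean level difference (E861A minus WT, percentage points) with an edited limit of 0.05 was -5.11 in brain, -17.1 in BM, -13.2 in spleen, -12.4 in thymus, -13.3 in liver, -9.49 in kidney, -21.6 in small intestine and -10.1 in heart, and -4.48 in BM at 500 reads. Leaving out 1 library at a time, it ranged from -4.55 to -3.16 in brain, -9.62 to -6.55 in BM, -5.75 to -4.57 in spleen, -5.38 to -3.61 in thymus, -8.53 to -3.89 in liver, -5.44 to -3.77 in kidney, -10.99 to -3.40 in small intestine and -5.52 to -3.24 in heart. Calls then ranged from 0 to 1 in brain (0 to 12), 7 to 10 in BM (19.0% to 40.0% of all edited sites), 5 to 8 in spleen (16 to 79), 0 to 16 in thymus (0 to 223), 0 to 7 in liver (15 to 123) and 3 to 20 in kidney (55 to 200). Interaction calls ranged from 3 to 25 (51 to 222), and tissue calls in WT from 14 to 29 (84 to 199). Without WT replicate 3, 16 of 55 were called in thymus, 7 of 36 in liver and 20 of 56 in kidney, beside 223 of 560, 98 of 572 and 200 of 542 over all edited sites. Without any 1 of the E861A libraries, 0 were called in liver, and without WT replicate 1, 6 of 56 (123 of 662). Without WT replicate 2 or E861A replicate 3, 3 were called in kidney (55 of 484 and 62 of 515).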
